A study of Homo sapiens with 16 samples.

Results

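The genes described here are 10 genes of melanin synthesis and of the melanosome, the organelle in which pigment cells make and store melanin. They were TYR, TYRP1, DCT, PMEL, MLANA, OCA2, SLC45A2, GPR143, TRPM1 and RAB38, chosen by symbol and found as 10 of the 34228 genes in the table of counts. Their RNA was measured by RNA-Seq in 2 human melanoma cell lines, 451Lu-R, which is MITFhi/AXLlo, and 1205Lu-R, which is MITFlo/AXLhi. Both lines had been made resistant to BRAF inhibitors (BRAFi-R) by growth in rising doses of PLX4032 (vemurafenib) and were maintained in this drug at 5 μM. Cells of both lines received either 2.5 μM corin, a bivalent inhibitor of the LSD1 and HDAC activities of the CoREST repressor complex, or its vehicle DMSO, for 24 h. The 24 h treatment of the libraries used here held no PLX4032 (0 μM). There were 4 groups of 2 libraries each, 451Lu-R with DMSO, 451Lu-R with corin, 1205Lu-R with DMSO and 1205Lu-R with corin, and each phenotype was represented by 1 cell line. The sources do not say whether the 2 replicates of a group were separate cultures, so p-values measure only the spread between these libraries, which may be technical.

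Melanin is made from tyrosine. Tyrosinase (TYR) catalyses the rate-limiting oxidation, dopachrome tautomerase (DCT) and tyrosinase-related protein 1 (TYRP1) act on later intermediates, and the pigment is deposited on fibrils that PMEL forms inside the melanosome. Transporters and channels such as OCA2 and SLC45A2 set the ionic conditions and pH in which tyrosinase works, and small GTPases such as RAB38 deliver the enzymes to the organelle. MITF, the master transcription factor of the melanocyte, activates many of these genes through E-boxes, hexamers of the form CANNTG, in their promoters, and SOX10 activates MITF and several of the same genes.

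Promoters were searched for the letters through which MITF is known to act, and those of 5 of the genes with a window are shown first. RefSeq windows of 300 bases on GRCh38.p14, from 250 bases before the start site to 50 bases into the gene, were matched for 7 of the 10 genes (9 windows). They were searched on both strands for CATGTG, which reads CACATG on the other strand, and for CACGTG, the E-boxes that MITF binds, and for TCATGTG, a form of CATGTG with a T before it that is the core of the M-box. CATGTG was in 7 windows of 6 genes and CACGTG was in none of the 9. PMEL, SLC45A2 and RAB38 had no window and were not searched. Of all 35116 windows of this length, 11.1% held CATGTG, 7.26% held CACGTG and 2.92% held TCATGTG. In the sequences printed here, each written 5′ to 3′ along the gene's strand, capitals mark the E-boxes.

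TYR (chr11:89177625-89177924, plus strand): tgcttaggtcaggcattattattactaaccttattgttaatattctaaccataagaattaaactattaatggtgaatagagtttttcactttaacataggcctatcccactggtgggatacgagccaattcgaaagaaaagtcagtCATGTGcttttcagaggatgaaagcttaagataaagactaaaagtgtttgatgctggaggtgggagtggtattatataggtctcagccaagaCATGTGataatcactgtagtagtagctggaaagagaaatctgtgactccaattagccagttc
TYRP1 (chr9:12693135-12693434, plus strand): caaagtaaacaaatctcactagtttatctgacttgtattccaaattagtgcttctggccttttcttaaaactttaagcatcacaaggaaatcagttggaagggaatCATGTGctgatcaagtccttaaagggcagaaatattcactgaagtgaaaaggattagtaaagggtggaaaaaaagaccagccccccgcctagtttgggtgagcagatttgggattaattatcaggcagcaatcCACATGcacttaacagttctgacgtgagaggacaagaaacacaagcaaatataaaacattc
DCT (chr13:94479633-94479932, minus strand, the window at the annotated gene start): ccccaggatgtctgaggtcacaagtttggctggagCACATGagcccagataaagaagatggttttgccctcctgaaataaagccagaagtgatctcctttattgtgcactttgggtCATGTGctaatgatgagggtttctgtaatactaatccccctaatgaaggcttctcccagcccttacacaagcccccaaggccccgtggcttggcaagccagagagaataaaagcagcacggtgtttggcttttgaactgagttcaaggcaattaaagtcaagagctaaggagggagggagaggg
GPR143 (chrX:9765798-9766097, minus strand): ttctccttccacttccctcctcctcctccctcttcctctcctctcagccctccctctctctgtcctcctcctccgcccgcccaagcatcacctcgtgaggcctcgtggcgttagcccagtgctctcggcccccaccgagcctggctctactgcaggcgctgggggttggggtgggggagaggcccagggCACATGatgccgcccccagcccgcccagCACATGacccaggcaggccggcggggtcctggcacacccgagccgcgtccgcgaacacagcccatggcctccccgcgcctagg
MLANA (chr9:5890639-5890938, plus strand): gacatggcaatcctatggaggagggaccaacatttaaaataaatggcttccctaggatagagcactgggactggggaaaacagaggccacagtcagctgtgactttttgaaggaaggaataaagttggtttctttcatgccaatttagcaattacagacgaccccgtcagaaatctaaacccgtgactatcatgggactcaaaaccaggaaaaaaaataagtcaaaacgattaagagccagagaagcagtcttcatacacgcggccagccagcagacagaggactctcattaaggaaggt

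TYR held CATGTG 104 and 12 bases before its start site, and TYRP1 held it at 144 bases and, on the other strand, at 11 bases. DCT held it 215 bases before the start on the other strand and 134 bases before the start on the gene's strand. GPR143 held both of its matches on the other strand, at 61 and 33 bases. The form TCATGTG was present in these 4 genes, once in TYR, once in TYRP1 and at both places in DCT and GPR143. A longer form, TCATGTGCT, searched after the windows had been read, was found at least once in each of the same 4 genes and in 0.216% of all windows. OCA2 held 1 match, 153 bases before its start, and TRPM1 held 1 match in each of its 2 windows. MLANA and the other DCT window held none of these letters. A match describes the sequence and was not tested for binding.

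**Figure D1:**
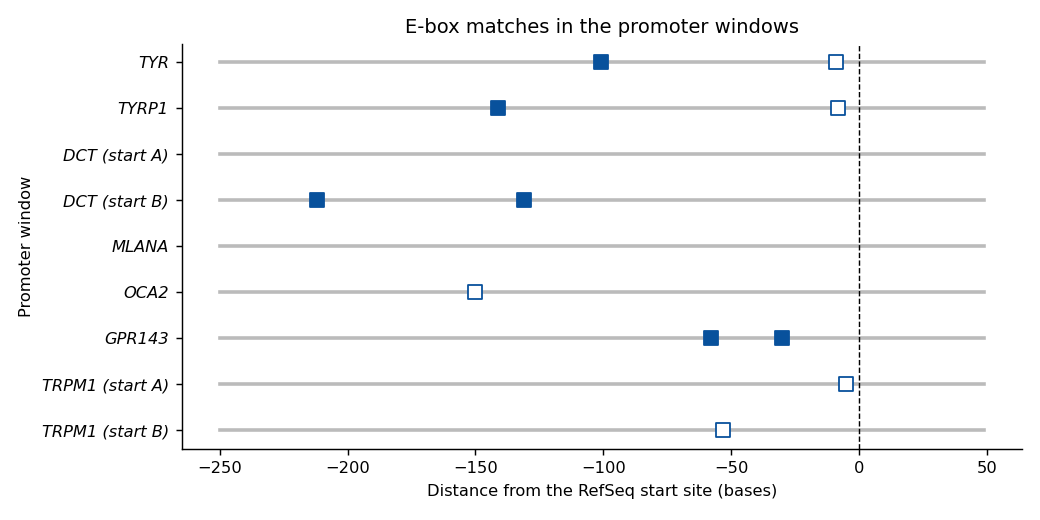
Positions of CATGTG on either strand in the 9 RefSeq promoter windows, with the distance from the start site in bases on the x axis and a line for each window. Filled squares mark matches within TCATGTG and open squares the other matches. DCT start B and GPR143 have 2 filled squares each, and MLANA and DCT start A have none.

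Library totals ran from 9516687 to 11797788 estimated counts, and TMM factors from 0.962 to 1.05. Levels are given as CPM (counts divided by the library's total and scaled to 1e+06), with the mean ± SD over 2 libraries, and fold changes come from edgeR's quasi-likelihood test with Benjamini-Hochberg adjustment over all genes tested, with the standard error (SE). A gene is said to have risen or fallen at an FDR under 0.05. The lines matched their labels: MITF stood at 782 and 804 CPM in the 451Lu-R libraries with DMSO and at 8.04 and 6.31 CPM in those of 1205Lu-R, and AXL at 0.183 and 0 CPM against 948 and 976 CPM. In bulk RNA, fewer cells that express a gene and less RNA per cell cannot be told apart.

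Most pigment genes were lower with corin in 451Lu-R cells, to very different extents. Of the 10 genes, 8 fell, 1 rose (DCT) and 1 did not pass the test (OCA2). Across all 14530 genes tested in this line, 38.6% fell and 41.3% rose. SLC45A2, RAB38, TRPM1 and GPR143 fell to about the same degree, by 1.47 to 1.57 on the log2 scale. MLANA, TYRP1, TYR and PMEL fell by less, from 0.12 to 0.70. The median log2 fold change of the 10 genes was -0.63, against 0.03 for all genes tested. At the thresholds of a 4-fold change and an FDR under 0.001, which 2.72% of genes passed downward and 12.4% upward, none of the 10 genes was called (0 in either direction).

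Among the enzymes, DCT and TYR moved in opposite directions. TYR (chr11:89177875-89295759, plus strand) stood at 449.9 and 458.6 CPM with DMSO and at 325 and 330.2 CPM with corin. Both corin libraries lay below both DMSO libraries, and the fall was small, by 0.37 on the log2 scale (SE 0.02, FDR = 3.8e-11). DCT (chr13:94436811-94479682, minus strand) stood at 1666 and 1669 CPM with DMSO and at 2692 and 2659 CPM with corin. It was the only one of the 10 genes that rose, with a log2 fold change of 0.78 (SE 0.02, FDR = 3.6e-19), which is a 1.72-fold increase. TYRP1 (chr9:12685439-12710285, plus strand) was barely expressed in this line, at 4.77 and 5.07 CPM with DMSO and 3.05 and 3.2 CPM with corin, or 101 and 68 counts per group. Its fall by 0.55 (SE 0.23) passed with FDR = 0.035 but not with DESeq2 (adjusted p = 0.252) or with all 8 libraries in 1 fit (FDR = 0.0788), nor when any 1 of the 4 libraries was left out (FDR from 0.0724 to 0.142). TYR overlaps a pseudogene and TYRP1 a long noncoding RNA on the opposite strand, and the use of strand in counting is not given in the sources used here.

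**Figure D2:**
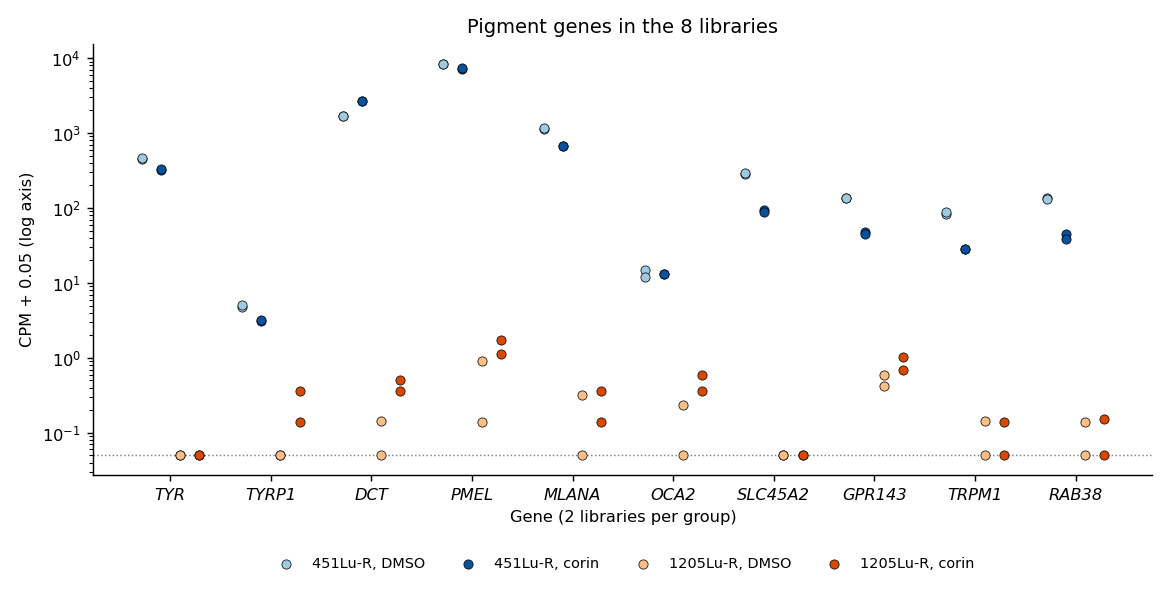
Level of each of the 10 genes in each of the 8 libraries, as CPM plus 0.05 on a log axis, with 2 points per group and the dotted line at 0 counts. Every 451Lu-R library lies above every 1205Lu-R library for each gene, and in 451Lu-R the DCT points with corin (2659 and 2692 CPM) lie above those with DMSO (1666 and 1669 CPM).

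The genes of the melanosome's fibrils fell but kept high levels. PMEL (chr12:55954105-55973317, minus strand), whose cleaved fragments build the fibrils, stood at 8425 and 8448 CPM with DMSO and at 7189.7 and 7262 CPM with corin. The libraries of the 2 groups did not overlap, but the fall by 0.12 on the log2 scale (SE 0.01, FDR = 1.9e-07) was the smallest of the 8. The log2 fold change of PMEL ran from -0.22 to -0.10 over the settings tried. Library-size scaling alone moved the median of all genes in this line by -0.098, so the size of this fall depends on the scaling. MLANA (chr9:5890889-5910606, plus strand), the antigen also known as MART-1, which takes part in PMEL maturation, stood at 1139 and 1183 CPM with DMSO and at 670.5 and 665 CPM with corin. MLANA fell by 0.70 (SE 0.02, FDR = 1.6e-16). PMEL overlaps CDK2 on the opposite strand, and CDK2 also fell in this line, by 0.74 on the log2 scale (FDR = 1.9e-15). MLANA overlaps KIAA2026 on the opposite strand.

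The other melanosomal membrane and trafficking genes, apart from OCA2, fell together and by more. SLC45A2 (chr5:33944623-33984693, minus strand), a transporter that helps to keep melanosomal pH near neutral, stood at 285.8 and 293 CPM with DMSO and at 94.4 and 87.4 CPM with corin, a fall by 1.57 (SE 0.04, FDR = 2.7e-18). RAB38 (chr11:88113251-88175443, minus strand), a GTPase that sorts TYR and TYRP1 to the melanosome, stood at 134 and 132 CPM with DMSO and at 45.3 and 39 CPM with corin, a fall by 1.55 (SE 0.06, FDR = 2.4e-15). In both genes the corin libraries lay far below the DMSO libraries and the gap was many times the spread within a group. TRPM1 (chr15:31001065-31161160, minus strand), a cation channel whose gene contains the microRNA MIR211, stood at 82.4 and 88.3 CPM with DMSO and at 28.5 and 27.9 CPM with corin, a fall by 1.5 (SE 0.07, FDR = 6.1e-14). GPR143 (chrX:9725346-9786297, minus strand), a receptor in the melanosomal membrane, stood at 137.7 and 136 CPM with DMSO and at 47.4 and 44.6 CPM with corin, a fall by 1.47 (SE 0.05, FDR = 5.5e-16). The 95% intervals of these 4 genes overlapped each other and lay below those of the other 6.

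OCA2 (chr15:27754875-28099315, minus strand), which carries a melanosomal chloride conductance, was the exception. It stood at 14.9 and 11.9 CPM with DMSO and at 13 and 13.1 CPM with corin, so both corin libraries lay between the 2 DMSO libraries. The log2 fold change was 0.05 with a 95% interval from -0.21 to 0.32 and FDR = 0.71, and its sign turned with library-size scaling (-0.05). The lower end of the interval lies above the values of the 4 genes that fell most.

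**Figure D3:**
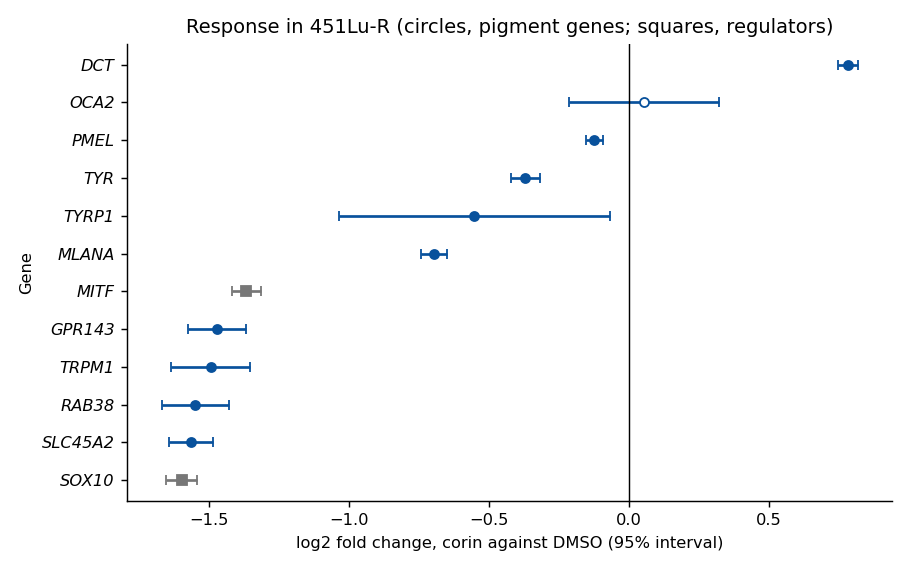
Log2 fold change, corin against DMSO in 451Lu-R, with 95% intervals, for the 10 pigment genes (circles) and the regulators MITF and SOX10 (squares), ordered by size. The open circle (OCA2) did not pass the test, DCT is the only gene to the right of 0 that did, and 4 genes lie between -1.57 and -1.47 beside MITF (-1.37) and SOX10 (-1.60).

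Ratios of 2 genes within a library do not depend on how libraries are scaled. The ratio of DCT to TYR counts was 3.7 and 3.64 in the DMSO libraries and 8.27 and 8.05 in the corin libraries. PMEL to MLANA went from 7.4 and 7.14 to 10.7 and 10.9, and TYR to SLC45A2 from 1.57 in both libraries to 3.45 and 3.78. Each of these ratios was higher in both corin libraries than in either DMSO library. The ratio of SLC45A2 to RAB38 was 2.13 and 2.23 in the DMSO libraries and 2.09 and 2.24 in the corin libraries, so that these 2 genes kept their proportion within the spread of the libraries. Set against MITF, which fell by 1.37 (SE 0.02, FDR = 2.4e-20), SLC45A2 was at 0.366 and 0.364 counts per MITF count with DMSO and at 0.329 and 0.305 with corin. TYR went from 0.575 and 0.57 counts per MITF count to 1.13 and 1.15, DCT from 2.13 and 2.08 to 9.37 and 9.29, and PMEL from 10.8 and 10.5 to 25 and 25.4. Relative to MITF transcripts, those of the tyrosinase family members TYR and DCT and of PMEL were thus more abundant with corin in both libraries. This is not particular to them, since MLANA, TYRP1 and OCA2 also fell by less than MITF or did not pass. Their ratios to MITF were not computed.

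**Figure D4:**
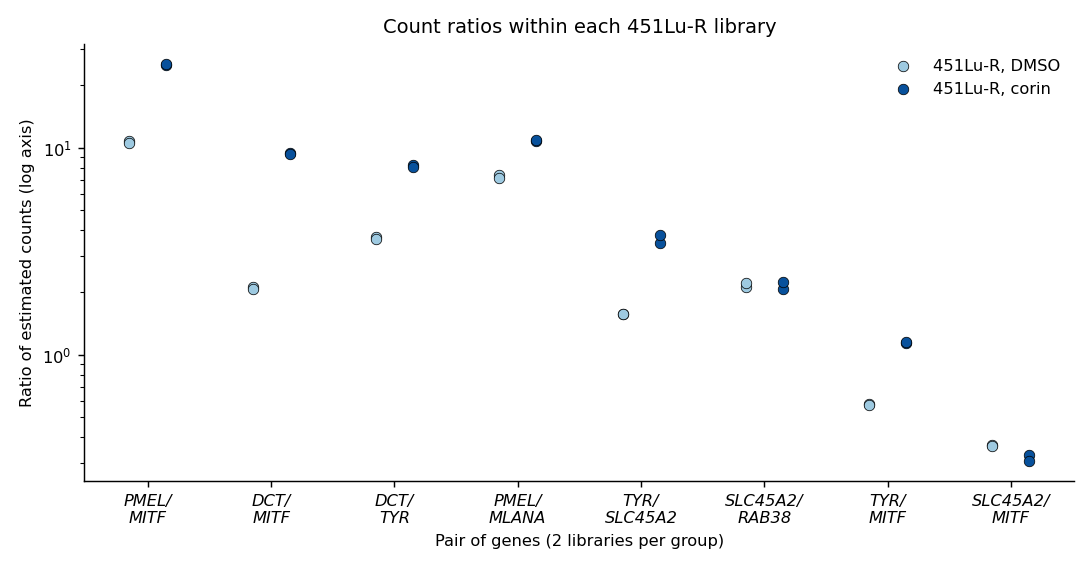
Ratio of the estimated counts of 2 genes within each 451Lu-R library, on a log axis, with 2 points per group. The ratio of DCT to MITF goes from 2.08 and 2.13 with DMSO to 9.29 and 9.37 with corin, whereas that of SLC45A2 to RAB38 spans 2.13 to 2.23 and 2.09 to 2.24.

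The 10 genes took 1.23% and 1.24% of all counts in the DMSO libraries of 451Lu-R and 1.11% in each corin library. PMEL accounted for 68.3% and 68% of this sum with DMSO and for 64.7% and 65.2% with corin. DCT accounted for 13.5% and 13.4% with DMSO and for 24.2% and 23.9% with corin. Levels were compared between genes per kilobase of exonic length. PMEL was highest at 2298 ± 4.4 CPM per kb (SD, n = 2) in the DMSO group, followed by MLANA (387 ± 10.3 CPM per kb), DCT (221 ± 0.325 CPM per kb) and TYR (175 ± 2.38 CPM per kb). RAB38 (92.7 ± 1.27 CPM per kb) and SLC45A2 (89.8 ± 1.57 CPM per kb) were close neighbours, and their order turned when the canonical transcript's length was used instead. GPR143 (57.8 CPM per kb), TRPM1 (11.7 CPM per kb), OCA2 (4.11 CPM per kb) and TYRP1 (1.32 CPM per kb) followed. With corin, DCT (355 ± 3.12 CPM per kb) stood above MLANA (223 ± 1.2 CPM per kb), and RAB38 (29.4 ± 3.1 CPM per kb) and SLC45A2 (28.2 ± 1.55 CPM per kb) did not differ beyond their spread.

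In 1205Lu-R cells these genes were at or near the limit of detection. The 10 genes together had 11 and 17 counts in the DMSO libraries and 35 and 37 in the corin libraries. TYR and SLC45A2 had 0 counts in all 4 libraries, which allows up to 3 counts over a group, or 0.138 CPM with DMSO and 0.145 CPM with corin. These limits cover counting error only. TRPM1 had 1 count over each group, and so had RAB38. The DMSO libraries held 3 and 0 counts of MLANA and the corin libraries 3 and 1, a ratio over the groups of 1.4 with a 95% exact counting interval from 0.237 to 9.57. TYRP1 had 0 counts in both DMSO libraries and 3 and 1 in the corin libraries, which is at least 1.4-fold higher against a floor of 3 counts over the group. None of these 6 genes had more than 3 counts in any library.

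PMEL, GPR143, OCA2 and DCT had a few more reads. PMEL had 1 and 9 counts in the DMSO libraries and 16 and 12 in the corin libraries, and was the only one of the 10 genes (1 of 10) to pass the filter on low counts in this line, which it did through its corin libraries. Its log2 fold change was 1.46 (SE 0.59, FDR = 0.028), at a level of 0.469 ± 0.535 CPM with DMSO and 1.38 ± 0.425 CPM with corin (SD, n = 2), where 40.4% of the 14563 genes tested rose. The call was lost with DESeq2 (log2 fold change 1.49, adjusted p = 0.167), without the first DMSO library (0.59, FDR = 0.412; 3.66 without the second) and without the first corin library (1.13, FDR = 0.22). CDK2, which overlaps PMEL on the opposite strand, moved the other way, from 74.6 and 68.3 CPM to 30.9 and 33.3 CPM, and its part in the PMEL counts was not tested. GPR143 had 6 and 4 counts without the drug and 6 and 11 after it, a ratio of 1.79 (0.773 to 4.37). For OCA2 there were 0 and 2 counts in the DMSO libraries and 3 and 6 in the corin libraries, a ratio of 4.73 (0.979 to 45). DCT, with 0 and 1 counts in the DMSO libraries and 3 and 5 in the corin libraries, had a ratio of 8.41 (1.13 to 373). Intervals are 95% exact counting intervals on the summed counts of 2 libraries and do not include the spread between libraries.

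The lines themselves were compared next. With DMSO, all 10 genes were lower in 1205Lu-R than in 451Lu-R, where 37.2% of the 16062 genes tested were lower, and all 10 also passed the 4-fold thresholds, where 9.35% did. With corin, again 10 of 10 were lower, against 39% of all genes, and 10 passed the 4-fold thresholds, against 8.24%. These 10 genes passed the filter on low counts through the 451Lu-R libraries, where they were high. In 1205Lu-R alone only PMEL passed it, so for the other genes passing the filter already fixed the direction. With DMSO, PMEL had 173500 counts in the 451Lu-R group and 10 in the 1205Lu-R group, 18295-fold lower in 1205Lu-R (95% exact counting interval from 9948 to 38152). With corin, PMEL was 5322-fold lower (3682 to 8009). The size of the PMEL difference with DMSO depended on which DMSO library of 1205Lu-R was kept, with fitted log2 differences of -14.00 with both, -13.14 without the first and -16.20 without the second. TYR was at least 3282-fold lower with DMSO and at least 2253-fold lower with corin, and SLC45A2 at least 2090.3-fold and at least 627-fold lower, each against the floor of 3 counts over the group. The smallest fold differences or lower bounds were those of GPR143, OCA2 and TYRP1, and for TYRP1 with DMSO only a lower bound can be given. With DMSO, GPR143 was 297-fold lower (161 to 620), OCA2 146-fold (40 to 1212) and TYRP1 at least 35.5-fold lower. With corin, GPR143 was 55.9-fold lower (34.8 to 96.4), OCA2 29.9-fold (15.5 to 66) and TYRP1 16.1-fold (6 to 60.7). Where a gene had from 1 to 3 counts over a 1205Lu-R group, leaving out a library of that group moved its difference by over 1.5 times as well, and so it did for TYRP1 and MLANA with corin. These comparisons rest on 1 line of each phenotype, so a difference between phenotypes and one between these 2 lines cannot be told apart.

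Whether the response to corin differed between the lines was tested with an interaction term over all 8 libraries, and 2 of the 10 genes passed, GPR143 and TYRP1. For TYRP1 the fitted difference of 4.62 (SE 1.71, FDR = 0.0304) is set against 0 counts in both DMSO libraries of 1205Lu-R and depends on the prior count. It was lost with DESeq2 (3.98, adjusted p = 0.0565), without either DMSO library of 1205Lu-R (FDR = 0.0971 and 0.094) and without the first corin library (3.64, FDR = 0.187), and it was 5.28 without the second. Of the 4 genes with more than 3 counts in some library of each line, GPR143 passed, with a response higher in 1205Lu-R by 2.18 on the log2 scale (SE 0.48, FDR = 0.00072), where 22.6% of all genes tested differed in this direction and 27.1% in the other. Its response was a fall by 1.47 in 451Lu-R and a count ratio of 1.79 in 1205Lu-R, where it rests on 10 counts with DMSO and 17 with corin, and the call was lost without the second corin library of 1205Lu-R (1.82, FDR = 0.0524). For PMEL the difference was 1.55 (SE 1, FDR = 0.217), for OCA2 1.95 (SE 0.96, FDR = 0.0999) and for DCT 1.91 (SE 2, FDR = 0.467). The PMEL difference passed under other settings, among them DESeq2 (1.58, adjusted p = 0.0095), and the OCA2 difference passed without the second DMSO library of 1205Lu-R (5.13, FDR = 0.0291). Without the first of these libraries it was 0.996. Without single libraries the PMEL difference ran from 0.68 to 3.75 and the DCT difference from 1.02 to 4.24. Of all genes called here, 45.4% had the higher response in 1205Lu-R, and 64% with library-size scaling, which moved the median of all genes by 0.209. The fitted differences of these 4 genes were larger than that shift, but so were their SEs, from 0.48 to 2, so nothing is concluded from this. For MITF the difference was 2.38 (SE 0.15, FDR = 1.4e-11), a fall by 1.37 in 451Lu-R and a rise by 1.05 (SE 0.14, FDR = 7.1e-07) in 1205Lu-R, from 8.04 and 6.31 CPM to 16.5 and 15 CPM. SOX10 fell by 1.60 (SE 0.03, FDR = 6.7e-21) in 451Lu-R and had 0 counts in all libraries of 1205Lu-R.

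The wider machinery that builds melanosomes and carries them to the cell periphery is expressed in both lines and was measured in both. Of 25 genes of melanosome biogenesis and transport, 15 fell, 5 rose and 5 did not pass in 451Lu-R, with a median log2 fold change of -0.33 against 0.03 for all genes, of which 38.6% fell and 41.3% rose. In 1205Lu-R, 14 fell, 4 rose and 7 did not pass, with a median of -0.29 against 0.03 for all genes, of which 37.8% fell and 40.4% rose. RAB27A, the GTPase that tethers melanosomes to the actin motor, stood at 371 and 381 CPM with DMSO and at 59.6 and 58.9 CPM with corin in 451Lu-R, a fall by 2.57 (SE 0.04, FDR = 8.5e-22). In 1205Lu-R it went from 57.6 and 55.2 CPM to 28.3 and 29.3 CPM, a fall by 1.04 (SE 0.07, FDR = 6.7e-12). MLPH, the melanophilin that joins RAB27A to the motor, fell by 1.36 (SE 0.04) in 451Lu-R, and the fall in 1205Lu-R was by 0.26. HPS4, a subunit of the complex that activates RAB32 and RAB38, went from 311 and 299.7 CPM to 54.7 and 60.8 CPM in 451Lu-R, a fall by 2.31 (SE 0.04, FDR = 4.4e-20), and fell by 0.52 in 1205Lu-R. VPS33A, a vesicle fusion factor, fell most in 1205Lu-R, by 1.39 (SE 0.11, FDR = 2.7e-10), and by 0.80 in 451Lu-R. LYST, which controls the size of lysosomes and melanosomes, fell by 0.76 in 451Lu-R and rose by 0.72 in 1205Lu-R (SE 0.11, FDR = 3.4e-06).

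The other pigment transporters were split in 451Lu-R, with 3 that fell and 3 that rose among 6 tested of 7 listed, near the shares of all genes (38.6% and 41.3%), and a median of -0.07 against 0.03. SLC24A5, the melanosomal exchanger of sodium, calcium and potassium, went from 348 and 337 CPM to 23.6 and 26.7 CPM. This fall by 3.68 (SE 0.05, FDR = 2.3e-22) was larger than that of any of the 10 genes. MFSD12, which imports cysteine into the melanosome, rose from 225 and 211 CPM to 466 and 466 CPM, by 1.19 (SE 0.03, FDR = 2.7e-18). SLC7A11, the cystine importer of the plasma membrane, rose by 1.01 (SE 0.03, FDR = 9e-16). In 1205Lu-R, 2 rose, 2 fell and 2 did not pass, where 40.4% of all genes rose and 37.8% fell, with a median of 0.03 for the list and for all genes. ATP7A, which supplies copper to tyrosinase, rose there by 1.29 (SE 0.11) and by 0.14 in 451Lu-R. SLC24A4, a relative of SLC24A5, had 2 and 3 counts in the DMSO libraries of 1205Lu-R and 20 and 17 in the corin libraries, and passed the filter on low counts through the latter. The ratio of its summed counts was 7.78 (95% exact counting interval from 3.05 to 25.4). TPCN2, a cation channel of the melanosome, fell by 1.32 (SE 0.16) in 1205Lu-R, with a fall by 0.86 in 451Lu-R.

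Of the 4 genes that process or sort PMEL, 2 fell and 2 rose in 451Lu-R, near the shares of all genes (38.6% and 41.3%), with a median of 0.02 against 0.03. BACE2, the protease that releases the fibril-forming fragment of PMEL, fell by 0.76 (SE 0.03, FDR = 1.4e-15) in 451Lu-R and by 0.66 (SE 0.04, FDR = 7.9e-13) in 1205Lu-R. APOE, on which PMEL fibrils are loaded, rose by 0.42 and FURIN, a proprotein convertase, by 0.35 in 451Lu-R. CD63, which sorts PMEL into vesicles, fell by 0.31 in 451Lu-R and also in 1205Lu-R, by 0.19. In 1205Lu-R, 2 fell and 1 did not pass among 3 tested, where 37.8% of all genes fell, with a median of -0.19 against 0.03.

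Genes of pigment signalling and transcription differed in direction within each line. In 451Lu-R, 6 fell and 4 rose among 10 tested of 14 listed (median -1.08 against 0.03), where 38.6% of all genes fell and 41.3% rose. In 1205Lu-R, 6 rose and 2 fell among 8 tested (median 0.69, the same with EDNRB at its lower bound, against 0.03), where 40.4% of all genes rose and 37.8% fell. IRF4, a partner of MITF at TYR, went from 74.4 and 76.7 CPM to 5.76 and 4.5 CPM in 451Lu-R and fell by 3.76 (SE 0.10, FDR = 1.8e-17). KITLG, the ligand of the KIT receptor, rose in both lines. It went from 0.55 and 1.45 CPM (6 and 14 counts) to 17.7 and 17.8 CPM in 451Lu-R, by 4.27 (SE 0.23, FDR = 1.2e-12), or by 5.07 without the second DMSO library. In 1205Lu-R it went from 2.35 and 2.17 CPM to 29.4 and 32.8 CPM, by 3.71 (SE 0.15, FDR = 1.2e-15). EDNRB, the endothelin receptor of melanocytes, had 0 counts in both DMSO libraries of 1205Lu-R and 3.99 and 4.41 CPM with corin, at least 30.5-fold higher against 3 counts over the group (FDR = 5e-09). EDNRB in 1205Lu-R, among the 6 that rose there, and KITLG in 451Lu-R passed the filter on low counts through their corin libraries. In 451Lu-R EDNRB fell by 1.55, from 417 and 411 CPM to 135 and 128 CPM.

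Of the 11 other genes linked to MITF, 6 fell, 4 rose and 1 did not pass in 451Lu-R (median -0.56 against 0.03), where 38.6% of all genes fell and 41.3% rose. In 1205Lu-R, 3 rose, 1 fell and 3 did not pass among 7 tested (median 0.47 against 0.03), where 40.4% of all genes rose and 37.8% fell. GPNMB, a melanosomal glycoprotein related to PMEL, rose in both lines. It went from 1379.9 and 1358 CPM to 1813 and 1799 CPM in 451Lu-R, by 0.50, and from 0.181 and 0.377 CPM to 6.1 and 5.58 CPM in 1205Lu-R (6 and 120 summed counts), by 4.27 (SE 0.39, FDR = 1.9e-09). In 1205Lu-R it passed the filter on low counts through its corin libraries. BCL2A1, an antiapoptotic gene activated by MITF, fell by 1.66 (SE 0.09, FDR = 7.6e-13) in 451Lu-R and rose by 2.12 (SE 0.14, FDR = 3.6e-12) in 1205Lu-R, where it reached 28.3 and 28 CPM. CAPN3, a protease, fell by 1.44 (SE 0.03) in 451Lu-R and had 0 counts in 1205Lu-R. DIAPH1, a formin, rose by 0.83 (SE 0.03) in 451Lu-R. CDK2 fell in both lines, by 0.74 and by 1.23 (SE 0.07, FDR = 2e-13).

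**Figure D5:**
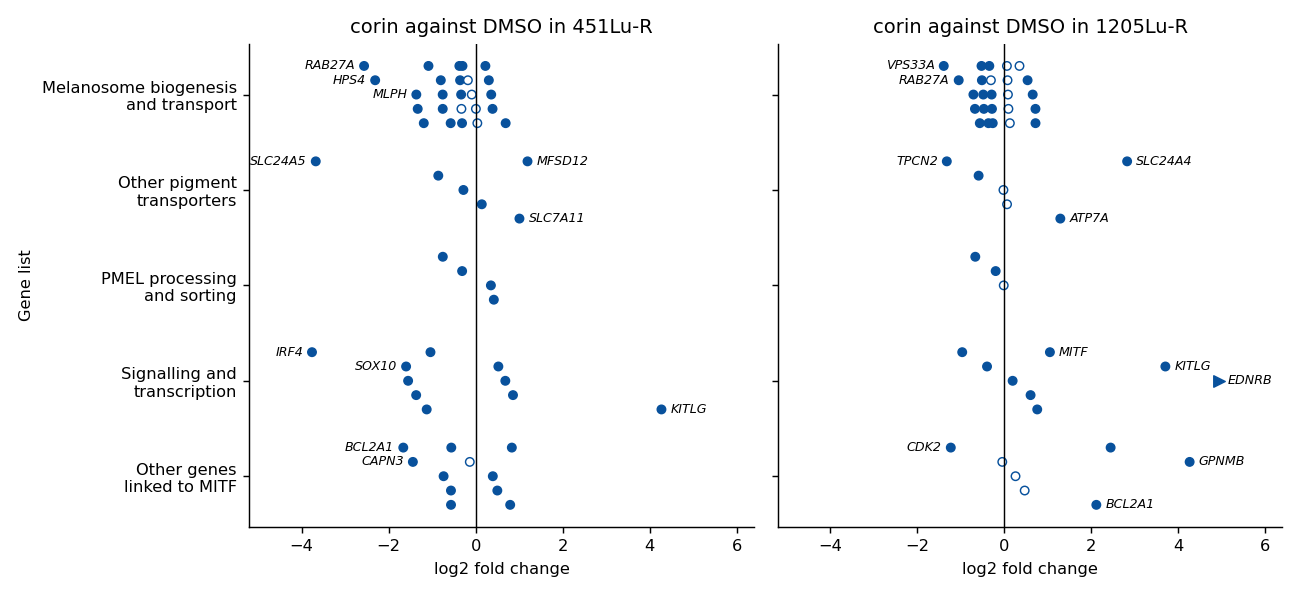
Log2 fold change, corin against DMSO, of each tested gene of 5 lists with 451Lu-R on the left and 1205Lu-R on the right, with filled symbols at an FDR under 0.05 and names for the described genes with a change over 1. The triangle (EDNRB) is a lower bound on a group at 0 counts. SLC24A5 (-3.68) and IRF4 (-3.76) lie farthest to the left in 451Lu-R, and KITLG lies far to the right in both lines (4.27 and 3.71).

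Markers of other states and cell types moved with the treatment as well. The summed level of 4 markers of dedifferentiated melanoma (AXL, NGFR, EGFR, WNT5A) was 7.98 to 8.07 CPM with DMSO in 451Lu-R. It was 371 to 379 CPM with corin, and all 4 rose, where 41.3% of all genes rose and 38.6% fell. Most of that sum was NGFR, at 355 and 348 CPM with corin. In 451Lu-R with DMSO, AXL had 2 and 0 counts and NGFR 14 and 8. Both passed the filter on low counts through their corin libraries, which already fixed their direction. In 1205Lu-R the sum was 1251 to 1265 CPM with DMSO and 803 to 816 CPM with corin. There, 1 rose and 3 fell, where 40.4% of all genes rose and 37.8% fell. The 6 fibroblast markers summed to 46.7 to 50.1 CPM with DMSO and 148 to 150.3 CPM with corin in 451Lu-R, where COL3A1 was at 0, and to 139 to 143 CPM and 93.8 to 93.9 CPM in 1205Lu-R. In 451Lu-R, LUM went from 49.3 and 45.5 CPM to 106 and 101 CPM and COL1A1 from 0.55 and 0.724 CPM to 39.1 and 41.6 CPM. COL1A1, with 6 and 7 counts in the DMSO libraries of 451Lu-R, passed the filter on low counts there through its corin libraries. The keratinocyte markers (3 of 4 in the table) summed to 21 to 21.3 CPM with DMSO and 16.7 to 20.4 CPM with corin in 451Lu-R, where KRT5 was near 0, and to 32.4 to 32.5 CPM and 30.6 to 31.4 CPM in 1205Lu-R. The immune or endothelial markers (3 of 4 in the table) summed to 1.35 to 1.47 CPM with DMSO and 8.39 to 8.6 CPM with corin in 451Lu-R, and to 10.7 to 10.8 CPM and 23.9 to 27.6 CPM in 1205Lu-R. Within these lists, VWF rose in both lines, by 2.70 and 3.70 on the log2 scale. KRT14 rose in 451Lu-R, by 3.80, where it passed the filter on low counts through its corin libraries. KRT10 fell in 451Lu-R, by 0.48, and PECAM1 fell in 1205Lu-R, by 0.45. Most of the fibroblast sum in 1205Lu-R was PDGFRB, at 138 and 142 CPM with DMSO and 85.2 and 84.6 CPM with corin. PDGFRB fell there by 0.79, and COL1A1 rose by 2.86. The part of these markers in the results on the pigment genes was not tested.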

How the data were processed

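For 8 libraries, the authors deposited estimated counts per gene from salmon, without normalization. They came from polyA RNA, with reads trimmed by trimmomatic and quantified against GENCODE v32. Tool versions are not given in the sources used here. The authors' tables for the PLX4032 treatments hold their own log2 fold changes and adjusted p-values and were not used, so 8 of the 16 samples were not analysed here. Names, positions and lengths came from GENCODE 44 (GRCh38), which matched 34052 of the 34228 genes. Counts were rounded and tested with edgeR 4.0.16 in R 4.3.3 (filterByExpr, TMM, glmQLFit, glmQLFTest, 2-sided), within a line for corin against DMSO and over 8 libraries for the other comparisons, after tests on simulated data. The SE is the log2 fold change divided by the square root of F. A group whose libraries had 3 counts or fewer was taken as at the floor. Between replicates, chi-square over its degrees of freedom ran from 1.34 to 1.41 (1 for sampling alone). The 10 genes and all lists were chosen with earlier results of these data known. The text names the 10 genes, MITF, SOX10 and, from each other pigment list and line, the 3 largest changes or fewer at an FDR under 0.05, among genes averaging 1 CPM or more whose corin and DMSO libraries do not overlap. CDK2, CEACAM1 and markers of other states and cell types, such as AXL, NGFR and COL3A1, are also named where a result touches them. Alternatives were DESeq2 1.42.0, RLE or library-size scaling, other filters, a replicate block, other sets of libraries, a 4-fold threshold and leaving out each library.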

Additional observations from a re-analysis of the deposited data

Results flagged for a closer look

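The results here were picked out because the response to corin differed between 1205Lu-R and 451Lu-R by the interaction test over 8 libraries (edgeR, FDR under 0.05), and each value is the response in 1205Lu-R minus that in 451Lu-R on the log2 scale. They are taken from the 10 pigment genes and from MITF, SOX10 and the list genes already described. Genes outside the 10 were taken only with more than 3 counts in some library of each line. Other genes of the same lists also passed. Among them was IRF4 (7.44, FDR = 0.002), which had 0 counts in both DMSO libraries of 1205Lu-R and 0 and 3 in the corin libraries. Among the 10 pigment genes they were GPR143 (2.18) and TYRP1 (4.62, a fitted value that depends on the prior count because both DMSO libraries of 1205Lu-R were at 0), and among the regulators MITF (2.38). For melanosome biogenesis and transport the differences were 1.48 for RAB27A, 1.75 for HPS4, 1.07 for MLPH, 1.44 for LYST and -0.62 for VPS33A. The pigment transporters differed by 1.11 for ATP7A, -1.16 for MFSD12, -1.06 for SLC7A11 and -0.5 for TPCN2. FURIN differed by -0.4 and CD63 by 0.08. Of the other genes, BCL2A1 differed by 3.75, GPNMB by 3.73, DIAPH1 by -0.91 and CDK2 by -0.53. EDNRB differed by 9.98, a fitted value with the same limit as that of TYRP1. With 22.6% of all genes called in the higher direction and 27.1% in the lower, such differences were common. Groups of 2 libraries are too small for a test of single outlying libraries.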

How the results depend on the processing

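Among the log2 fold changes of named genes, 841 values under alternative settings kept the direction and the side of the threshold, 15 lost the call, 6 gained it and 2 turned sign, both for OCA2 in 451Lu-R, which was not called (-0.045 with library-size scaling, and from -0.10 to 0.22 without single libraries). The numbers of the 10 genes that fell and rose in 451Lu-R became 0 and 0 at a 4-fold change with FDR under 0.001, and leaving out 1 library gave 7 that fell and 1 that rose in each case. In 1205Lu-R the number that rose, 1, became 0 with DESeq2, at the 4-fold thresholds and with a filter at a mean of 1 CPM, and was 0 to 1 without single libraries. With all libraries in 1 fit, TYRP1 passed there in place of PMEL. Of the 4 genes with more than 3 counts in both lines, the number whose response was higher in 1205Lu-R, 1, became 2 with DESeq2 and with no filter, and was 1 to 2 without single libraries. The cause of these changes was not tested. All 10 genes stayed lower in 1205Lu-R under every alternative run. For all but PMEL, passing the filter on low counts in the main fit had already fixed this direction. Replicate numbers did not pair the libraries (their deviations correlated at -0.03 for 451Lu-R and 0.0152 for 1205Lu-R), and with the replicate block 8 genes fell and 1 rose in 451Lu-R while 1 rose in 1205Lu-R. Per kilobase of the canonical transcript, added after seeing the data, levels were higher for 8 genes by more than 1 SD, as PMEL at 3968 CPM per kb. Depth limits every statement on the 10 genes in 1205Lu-R, where 6 of the 10 had at most 3 counts in each library. Where 1 library was left out, the lone library of its group is assumed to vary like the other libraries.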
